A study of Homo sapiens with 6 samples.

Results

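The circadian clock loop genes were PER1, PER2, PER3, CRY1, CRY2, DBP, TEF, BMAL1, NPAS2 and CLOCK, taken by gene symbol from the platform annotation. All 10 were on the array with 1 probe set each, so 10 of 53617 probe sets and 10 of 14884 named genes are described. Total RNA of U-87 MG cells, a widely used line grown from a human glioblastoma, was measured on Affymetrix arrays read in 1 colour. The groups were 3 arrays of EMF exposed cells and 3 arrays of unexposed control cells, each an independent biological replicate per the series' design text. Exposed cells had spent 54 h without interruption in RGFIELDS, electromagnetic fields aimed at 4 molecules (hsa-miRNA-381, CHI3L1, which is a secreted protein, HSP70, which is a heat shock protein, and mutated alpha-kinase 2), starting 24 h after seeding. Both groups were the same line in the same medium with 10% serum at 37 °C, and no genetic change separated them. Exposed dishes stood in a culture box inside a Faraday chamber and unexposed dishes in a box outside it, so field and box cannot be told apart. Each group was collected at 1 time, and the time of day is not given in the labels, so the phase of a cycling transcript and its average level cannot be told apart.

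The mammalian clock is a feedback loop of transcription. BMAL1 pairs with CLOCK, or with its relative NPAS2, and the pair binds E-box sequences and switches on the PER and CRY genes, whose proteins return to the nucleus and inhibit the pair. DBP and TEF are transcription factors of the PAR bZIP family that the loop drives and that bind D-box sequences in turn, among others in PER genes, while RORE sequences let ROR and REV-ERB receptors set the level of BMAL1. Most cultured cells hold such a loop, and cells of a dish drift out of phase unless a signal such as fresh serum or a temperature change sets them together.

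The windows around the transcription starts of PER1, PER2, PER3 and BMAL1 are shown because these carry the binding sequences by which the loop is known to act on its own members. They come from RefSeq on build GRCh38.p14 and run from 250 bases before to 50 bases after the annotated start, at chr17:8152355-8152654 (minus strand) for PER1, chr2:238288561-238288860 (minus strand) for PER2, chr1:7784041-7784340 (plus strand) for PER3 and chr11:13277540-13277839 (plus strand) for BMAL1. Capitals mark matches to the motifs searched, each sequence reading 5′ to 3′ on the gene's strand.
PER1: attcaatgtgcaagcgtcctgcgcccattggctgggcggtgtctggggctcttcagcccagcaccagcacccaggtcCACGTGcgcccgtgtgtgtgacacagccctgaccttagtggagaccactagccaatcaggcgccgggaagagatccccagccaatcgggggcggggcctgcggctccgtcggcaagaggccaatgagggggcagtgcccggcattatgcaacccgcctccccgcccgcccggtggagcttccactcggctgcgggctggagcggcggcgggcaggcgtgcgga
PER2: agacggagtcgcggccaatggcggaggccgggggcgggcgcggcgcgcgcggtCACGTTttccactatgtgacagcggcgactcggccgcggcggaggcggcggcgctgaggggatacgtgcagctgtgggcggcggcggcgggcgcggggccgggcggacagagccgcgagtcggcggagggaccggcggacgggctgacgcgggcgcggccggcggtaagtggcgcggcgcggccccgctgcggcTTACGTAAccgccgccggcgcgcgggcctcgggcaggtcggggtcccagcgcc
PER3: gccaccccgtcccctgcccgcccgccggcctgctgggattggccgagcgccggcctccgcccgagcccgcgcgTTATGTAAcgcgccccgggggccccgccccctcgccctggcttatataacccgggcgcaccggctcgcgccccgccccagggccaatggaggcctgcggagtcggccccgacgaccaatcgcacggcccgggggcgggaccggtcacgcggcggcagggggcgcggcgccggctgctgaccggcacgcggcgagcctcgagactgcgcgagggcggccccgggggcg
BMAL1: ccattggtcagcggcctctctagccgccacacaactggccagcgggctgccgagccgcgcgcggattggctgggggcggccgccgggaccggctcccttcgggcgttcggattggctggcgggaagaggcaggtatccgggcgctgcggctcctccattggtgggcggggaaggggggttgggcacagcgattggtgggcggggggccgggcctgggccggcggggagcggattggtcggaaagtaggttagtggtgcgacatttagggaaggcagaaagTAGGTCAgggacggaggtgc

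The motifs searched on both strands were the E-box (CACGTG), the E'-box, a variant of it (CACGTT, or AACGTG on the other strand), the D-box (TTANGTAA), the core of the RORE (TAGGTCA) and the cAMP response element (TGACGTCA). Of all 35116 windows in the table, 7.26% held the E-box, 5.34% the E'-box, 2.18% the D-box, 1.85% the RORE core and 1.85% the cAMP element. PER1 held an E-box that began 173 bases before the start. PER2 held an E'-box 197 bases before the start and a D-box that began 3 bases before it and ran across it. PER3 held a D-box 177 bases before the start in 1 of its 2 annotated windows. An E'-box also stood in windows of CRY1 (89 bases before the start), CRY2 (188 bases before) and CLOCK (187 bases before), and both windows of TEF held an E-box. The RORE core was found 31 bases after the start in 1 of 2 BMAL1 windows and 65 bases before the start in a CRY2 window. None of the 5 motifs was found in the windows of DBP or NPAS2, and the cAMP element was found in none of the 15 member windows. No marked motifs overlapped, and a match describes letters in a window and not a bound site.

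The comparison of exposed with unexposed cells asks how the transcripts of the loop differed after exposure. PER2 fell in exposed cells and was the member that passed the threshold. The other 9 did not pass, and 8 of the 10 had negative log2 changes, as did 49.3% of all genes. All values here are log2 expression values from RMA (robust multi-array average, a background correction, normalization and summary of probes), so a difference of 1 is a doubling and a log2 change is exposed minus unexposed. Changes were tested with limma on all probe sets, adjusted by the Benjamini-Hochberg method over the 14884 genes, and passed at an adjusted p below 0.05. In that test 3.06% of all genes passed, 1.67% lower and 1.40% higher in exposed cells.

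Among the repressors, the PER genes had the larger differences. PER2 (probe set 16909958), whose protein binds CRY proteins and carries the inhibition of CLOCK and BMAL1, had values of 7.24, 7.19 and 7.34 on the exposed arrays, against 7.82, 8.10 and 7.88 on the unexposed arrays. Every exposed value lay below every unexposed value, with a gap of 0.48 between the groups, and unexposed replicate 2 was the highest array. Exposed cells averaged 7.26 ± 0.08 and unexposed cells 7.93 ± 0.14 (SD, n = 3 each). The difference in log2 was -0.67 (SE 0.09, 95% interval -0.88 to -0.46), so that exposed cells had 62.8% of the unexposed signal (limma adjusted p = 0.0287). Adjusted over all 53617 probe sets instead, the same fit gave limma adjusted p = 0.0375. Of all genes, 64 of 14884 had a lower log2 change. With single arrays left out the PER2 change lay between -0.73 and -0.59. The call was lost when exposed replicate 1 (limma adjusted p = 0.120), exposed replicate 2 (0.105), unexposed replicate 2 (0.0704) or unexposed replicate 3 (0.0988) was left out, and also with the replicate number as a block (0.127) or without a mean-variance trend (0.159). In each of these settings 0 of all 14884 genes passed.

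PER1 (probe set 16840846), a PER gene that responds quickly to resetting signals, stood at 7.18, 7.04 and 7.10 in exposed cells, against 7.55, 7.35 and 7.32 in unexposed cells. The groups did not overlap, and unexposed replicate 1 lay above the other unexposed arrays. Its change was -0.30 (SE 0.09, interval -0.50 to -0.10) and fell short of the threshold (limma adjusted p = 0.106); with single arrays left out it ran from -0.34 to -0.23. PER3 (probe set 16658536), a PER gene thought to be less central to the rhythm itself, had 7.04, 7.10 and 6.94 in exposed cells, against 7.25, 7.30 and 7.27 in unexposed cells. Its groups did not overlap either, and the unexposed arrays were nearly level. The PER3 change was -0.25 (SE 0.07, interval -0.41 to -0.08, limma adjusted p = 0.114).

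The CRY genes encode the strongest inhibitors of CLOCK and BMAL1. CRY1 (probe set 16769622) had 5.99, 5.75 and 5.92 in exposed cells, against 6.01, 5.98 and 5.92 in unexposed cells. The groups overlapped, with exposed replicate 2 the lowest. The CRY1 change was -0.09 (interval -0.30 to 0.13, limma adjusted p = 0.697), or -0.02 if exposed replicate 2 was left out. CRY2 (probe set 16724194) had 5.81, 6.10 and 5.78 in exposed cells, against 5.98, 5.90 and 5.94 in unexposed cells. Exposed replicate 2, the lowest array for CRY1, was the highest for CRY2. The CRY2 change was -0.04 (interval -0.29 to 0.21, limma adjusted p = 0.903) and took the opposite sign without exposed replicate 1 (0.00244) or exposed replicate 3 (0.02).

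**Figure D1:**
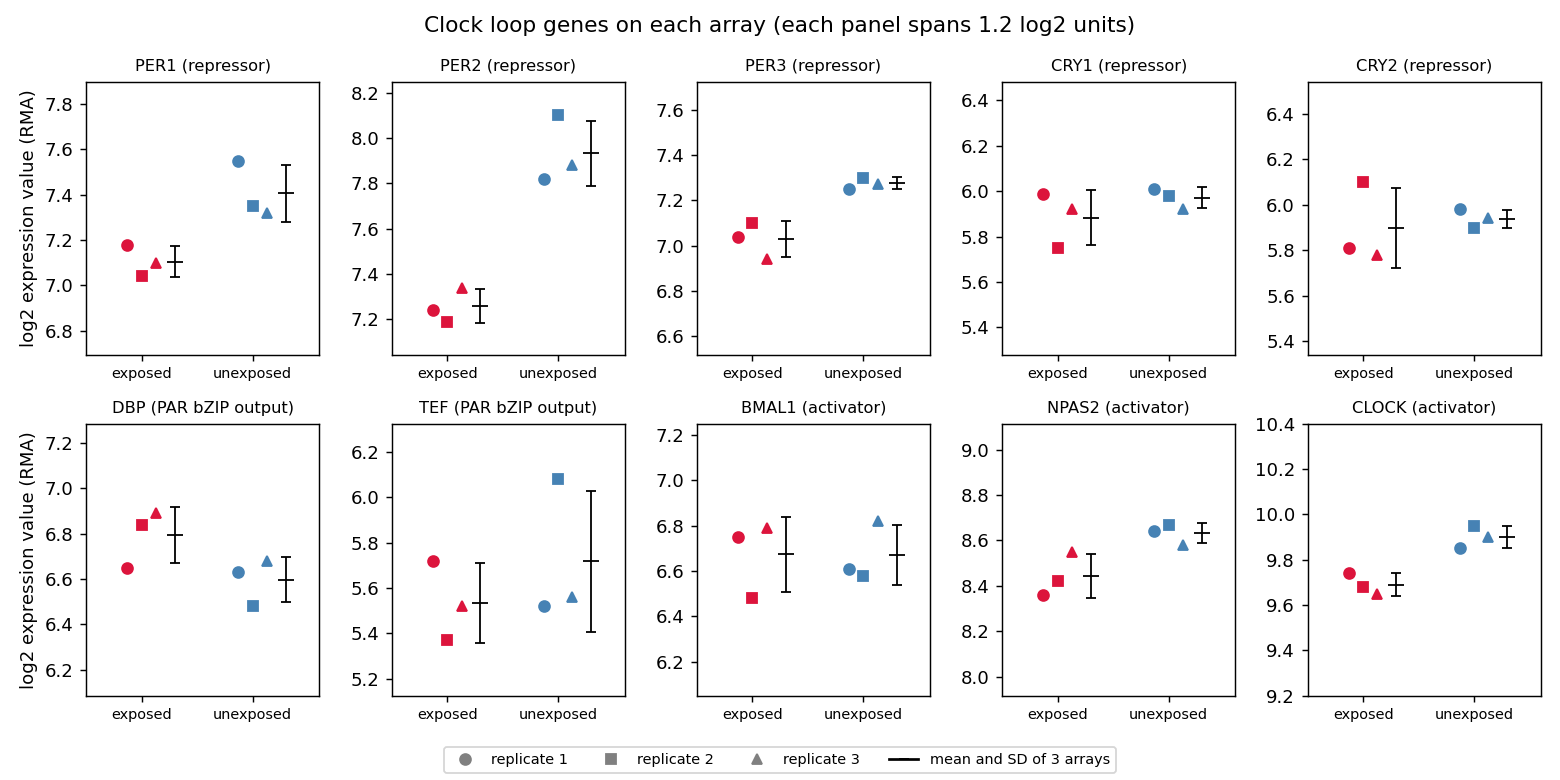
Each panel plots the log2 expression value (vertical axis) of 1 clock loop gene on the 3 exposed and the 3 unexposed arrays, with markers for replicate number and a bar for mean and SD (n = 3 each). Every panel spans the same range, and the exposed arrays of PER2 lie between 7.19 and 7.34, below all unexposed arrays.

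The PAR bZIP outputs of the loop differed in sign from each other. DBP (probe set 16874005), among the strongest cycling transcripts in many tissues, had 6.65, 6.84 and 6.89 in exposed cells, against 6.63, 6.48 and 6.68 in unexposed cells. Exposed replicate 1 lay within the unexposed values and the other exposed arrays above them. Its change was 0.20 (interval -0.02 to 0.42, limma adjusted p = 0.319), and it stayed between 0.14 and 0.27 with single arrays left out. TEF (probe set 16930623) had 5.72, 5.37 and 5.52 in exposed cells, against 5.52, 6.08 and 5.56 in unexposed cells. Unexposed replicate 2 stood apart from the other 5 arrays. The TEF change was -0.18 (interval -0.57 to 0.21, limma adjusted p = 0.640), or -0.00479 if unexposed replicate 2 was left out. HLF, the remaining PAR bZIP factor and not among the 10, had 5.54, 5.58 and 5.65 in exposed cells, against 5.98, 6.64 and 6.26 in unexposed cells. The groups of HLF did not overlap, and its change of -0.70 (SE 0.16) fell short of the threshold (limma adjusted p = 0.0579); leaving out unexposed replicate 2 gave -0.53.

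Among the activators, CLOCK and NPAS2 had small negative changes and BMAL1 had a change near 0. CLOCK (probe set 16976074), which pairs with BMAL1 and also acetylates histones, had 9.74, 9.68 and 9.65 in exposed cells, against 9.85, 9.95 and 9.90 in unexposed cells. The groups did not overlap, and both were tight, with an SD of 0.05 in each. The CLOCK change was -0.21 (SE 0.05, interval -0.34 to -0.08, limma adjusted p = 0.0868) and lay between -0.24 and -0.18 with single arrays left out. NPAS2 (probe set 16883498), which can stand in for CLOCK, had 8.36, 8.42 and 8.55 in exposed cells, against 8.64, 8.67 and 8.58 in unexposed cells. The NPAS2 groups were separated by 0.04 only, between exposed replicate 3 and unexposed replicate 3. Its change was -0.19 (SE 0.07, interval -0.35 to -0.03, limma adjusted p = 0.182).

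BMAL1 (probe set 16722217), the partner that the loop cannot do without in mice, had 6.75, 6.48 and 6.79 in exposed cells, against 6.61, 6.58 and 6.82 in unexposed cells. The groups overlapped over most of their range, and exposed replicate 2 was the lowest array. Exposed cells averaged 6.67 ± 0.17 and unexposed cells 6.67 ± 0.13 (SD, n = 3 each), a change of 0.00236 (interval -0.26 to 0.26). A change in BMAL1 as large as that of PER2 thus lay outside the interval, while a change of the size of CLOCK or NPAS2 lay within it.

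**Figure D2:**
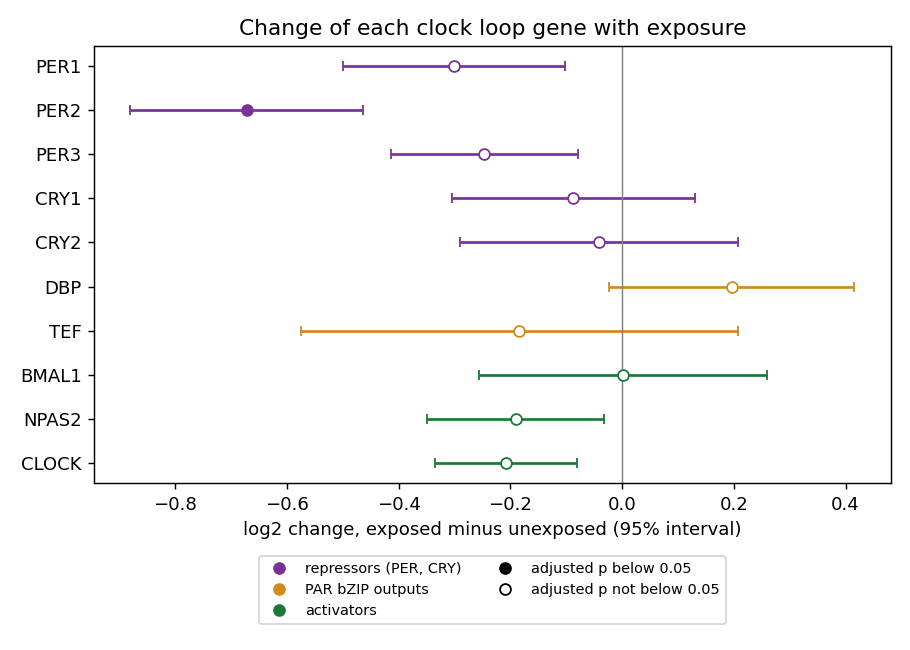
Log2 change of each clock loop gene, exposed minus unexposed, on the horizontal axis, with bars for the 95% interval from limma and colours for repressors, PAR bZIP outputs and activators. PER2 is the filled point (-0.67), and the intervals of both CRY genes, DBP, TEF and BMAL1 include 0.

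Over the 10 genes, 1 passed lower and 0 passed higher in exposed cells, beside 1.67% and 1.40% of all genes. At an unadjusted p below 0.05, 5 members were lower (PER1, PER2, PER3, NPAS2 and CLOCK) and 0 higher, beside 10.2% of all genes lower and 8.71% higher. The same 5 had exposed values wholly below the unexposed ones and 0 had them wholly above, where 13.8% of all genes were wholly below and 13.2% wholly above. The median log2 change of the 10 was -0.19, against 0.00287 over all genes. The genes were chosen with earlier results of these arrays known, so these counts describe them and carry no test.

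Setting the arms of the loop side by side, the mean of the 5 repressor genes was 6.65, 6.64 and 6.62 on exposed arrays, against 6.92, 6.93 and 6.87 on unexposed arrays. The mean of the 3 activators was 8.28, 8.20 and 8.33 on exposed arrays, against 8.37, 8.40 and 8.44 on unexposed arrays. Both means were lower on every exposed array than on any unexposed array, with average differences of -0.27 for the repressors and -0.13 for the activators. The repressor mean minus the activator mean was -1.63, -1.56 and -1.71 in exposed cells, against -1.44, -1.47 and -1.57 in unexposed cells, an average shift of -0.14. Here the groups overlapped, since exposed replicate 2 stood slightly above unexposed replicate 3. The shift ran from -0.18 (without exposed replicate 2) to -0.10 (without exposed replicate 3).

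Within the repressor arm the PER and CRY means were both lower on every exposed array but differed in size of change. The mean of PER1, PER2 and PER3 was 7.15, 7.11 and 7.13 in exposed cells, against 7.54, 7.58 and 7.49 in unexposed cells. The mean of CRY1 and CRY2 was 5.90, 5.93 and 5.85 in exposed cells, against 5.99, 5.94 and 5.93 in unexposed cells. Neither mean overlapped between groups, but the CRY groups nearly touched, since exposed replicate 2 and unexposed replicate 3 both rounded to 5.93. CRY1 and CRY2 each overlapped between groups when taken alone. Of all genes, 13.8% were wholly below. The average differences were -0.41 for PER and -0.06 for CRY. The PER mean minus the CRY mean averaged 1.24 ± 0.05 over exposed arrays and 1.58 ± 0.05 over unexposed arrays (SD, n = 3 each), a shift of -0.34 without overlap, so the PER signal was lower relative to the CRY signal on each exposed array. This split was chosen after the values were seen and was not tested.

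**Figure D3:**
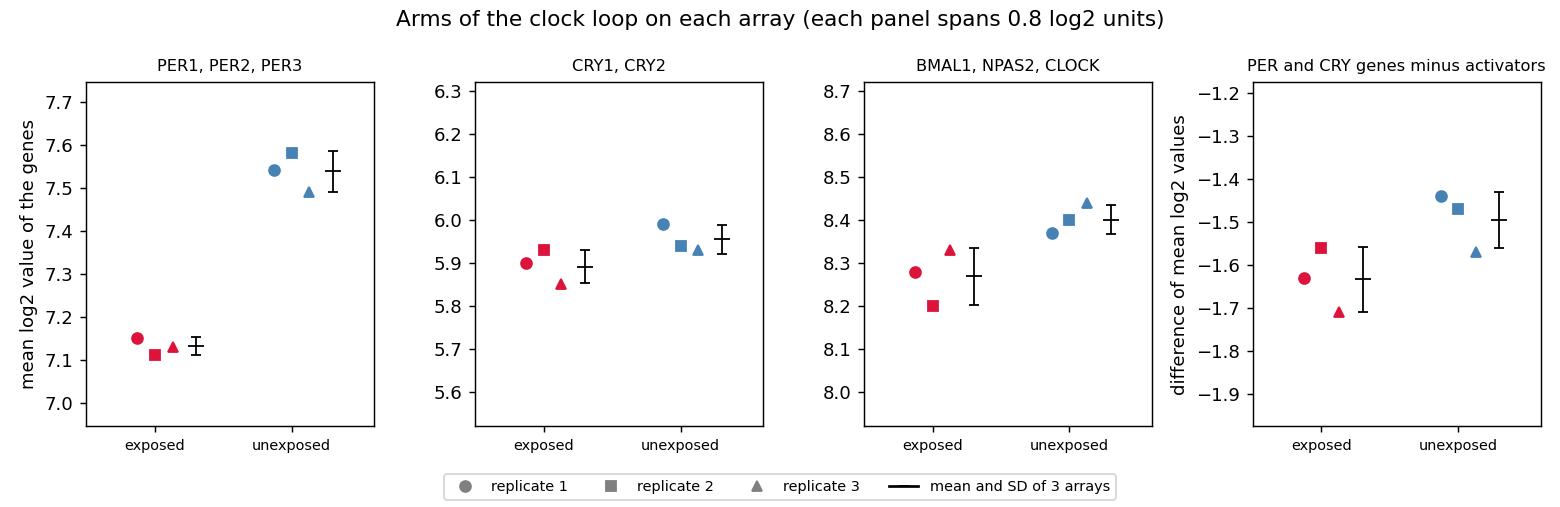
Mean log2 value of the PER genes, the CRY genes and the activators, and the repressor minus activator difference, on each of the 3 exposed and 3 unexposed arrays, with bars for mean and SD. The PER means lie at 7.11 to 7.15 in exposed and 7.49 to 7.58 in unexposed cells, while the difference between arms overlaps between the groups.

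No single array was extreme for all members. Exposed replicate 2 was the lowest exposed array for 5 genes (PER1, PER2, CRY1, TEF and BMAL1) and the highest for PER3 and CRY2. Unexposed replicate 2 was the highest unexposed array for 5 genes (PER2, PER3, TEF, NPAS2 and CLOCK) and the lowest for CRY2, DBP and BMAL1. Over all probe sets, correlations between arrays were 0.985 to 0.988 within groups and 0.982 to 0.987 between groups.

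**Figure D4:**
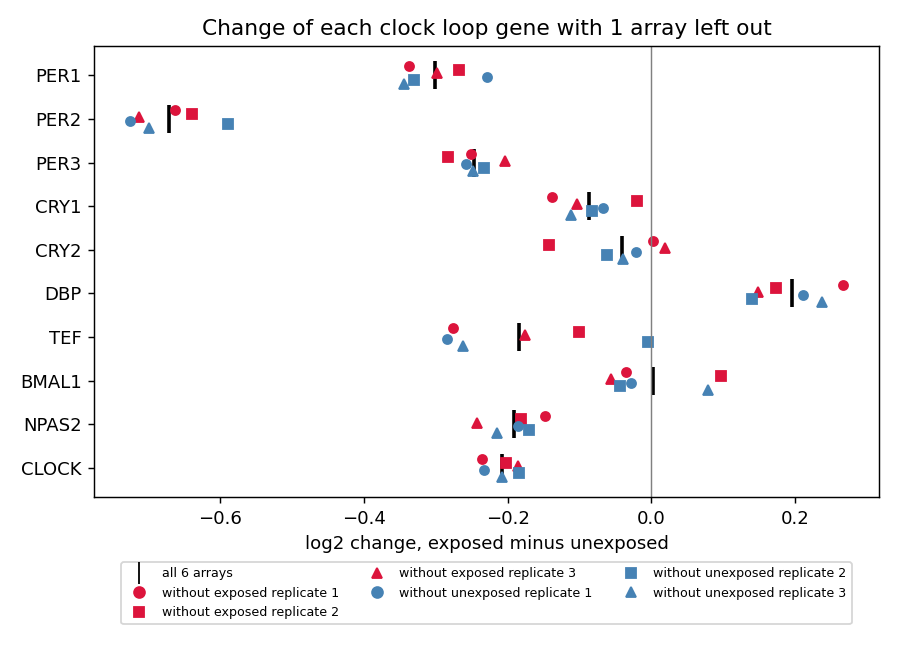
Log2 change of each clock loop gene (horizontal axis) with all 6 arrays (black bar) and with each array left out in turn (markers, coloured by the group of the array left out). PER2 keeps a change of -0.73 to -0.59, while CRY2 and BMAL1 fall on both sides of 0.

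The genes whose pattern over the 6 arrays was most like that of PER2, among 10711 named genes brighter than the median probe set, were DCAF16 (Pearson's r of 0.998), MYBL2 (0.998), LINC01963 (0.997), KNL1 (0.996) and RAD18 (0.996). MYBL2, which switches on genes of the dividing cell, had 7.79, 7.68 and 8.0 in exposed cells, against 8.66, 9.15 and 8.72 in unexposed cells. KNL1, a scaffold of the kinetochore, had 8.06, 7.94 and 8.19 in exposed cells, against 8.62, 8.91 and 8.67 in unexposed cells. In both, as in PER2, exposed replicate 2 was the lowest array and unexposed replicate 2 the highest. MYBL2 and KNL1 were picked for a high r with PER2 over the same arrays. This likeness thus followed from the choice and adds no support. In all, 392 of the 10711 genes had an r above 0.95 with PER2, and all these points share the same 6 arrays and the difference between groups. Of the other members, CLOCK (0.937) and NPAS2 (0.894) had higher r with PER2 than PER3 (0.878) and PER1 (0.795), and DBP had -0.767.

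Beyond the loop, 4 lists of further clock genes held 85 genes, of which 52 were measured, and 4 fell while 1 rose in exposed cells, beside 3.06% of all genes that changed in either direction. Of 9 measured further clock transcription factors (16 listed), 1 fell and 8 did not pass, and the median change was -0.32. The gene that fell was TIMELESS, a partner of the replication fork that has also been linked to the clock, with 7.46, 7.37 and 7.59 in exposed cells, against 7.87, 8.02 and 7.92 in unexposed cells. Its change was -0.46 (SE 0.08, limma adjusted p = 0.0336, and 0.0533 over all probe sets). Named once their values were known, the receptor RORA, an activator of BMAL1, had -0.32 (limma adjusted p = 0.207) and BMAL2, a relative of BMAL1, had -0.32 (limma adjusted p = 0.152). TIPIN, also named once its value was known, had a larger change of -0.43 (limma adjusted p = 0.0775). NR1D1, NR1D2, NFIL3, BHLHE40, BHLHE41 and CIART were not analysed here.

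Of 17 measured regulators of PER, CRY and BMAL1 proteins (34 listed), 1 fell and 16 did not pass, with a median of -0.13. HDAC3, the histone deacetylase through which REV-ERB receptors silence genes, had 7.64, 7.51 and 7.76 in exposed cells, against 8.11, 8.09 and 8.06 in unexposed cells. Its change was -0.45 (SE 0.08, limma adjusted p = 0.0336, and 0.0533 over all probe sets). BTRC, a ubiquitin ligase subunit that marks PER proteins for breakdown, had 0.20 (limma adjusted p = 0.189) and was named once its value was known. Most of the list went the other way, with 14 negative and 3 positive log2 changes. EP300 (-0.21), USP7 (-0.24) and CUL1 (-0.21) had smaller p than BTRC (limma adjusted p of 0.123, 0.124 and 0.150). Of the 17 genes, 9 were wholly below in exposed cells and 1, BTRC, wholly above, beside 13.8% and 13.2% of all genes. The casein kinase 1 genes CSNK1D and CSNK1E were not analysed here.

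Of 17 measured genes for signals that act on PER transcription (21 listed), 1 fell, 1 rose and 15 did not pass, with a median of -0.05. CIRBP, a cold-inducible RNA-binding protein known in mouse cells to bind Clock transcripts, had 7.90, 7.82 and 8.21 in exposed cells, against 8.67, 8.81 and 8.70 in unexposed cells. Its change was -0.75 (SE 0.10, limma adjusted p = 0.0287) on the brighter of its 2 probe sets, but -0.11 on the mean of both (limma adjusted p = 0.461). The dimmer probe set of CIRBP thus had a change of the opposite sign, so CIRBP counts as fallen by its brighter probe set only. FOS, an immediate early gene of the serum and cAMP response, had 6.83, 6.67 and 7.02 in exposed cells, against 6.28, 6.30 and 6.18 in unexposed cells, a change of 0.59 (SE 0.11, limma adjusted p = 0.0344, and 0.0551 over all probe sets). Named once their values were known, genes just short of the threshold had both signs. CRTC1, a coactivator of cAMP-driven transcription, had -0.28 (limma adjusted p = 0.0555) and FOSB, a relative of FOS, had -0.48 (limma adjusted p = 0.0728). The serum response factor SRF had 0.28 (limma adjusted p = 0.0644), the heat shock factor HSF1 had 0.29 (limma adjusted p = 0.0868) and EGR1, another immediate early gene, had 0.96 (limma adjusted p = 0.101). In these 5 genes the exposed and unexposed values did not overlap, where 13.8% of all genes were wholly below and 13.2% wholly above. They were named for lying near the threshold, so this separation adds no support. The glucocorticoid receptor targets FKBP5 (-0.10) and KLF9 (0.00545) had changes that did not pass either (limma adjusted p of 0.835 and 0.990), also named once their values were known.

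Of 9 measured clock-controlled output genes (14 listed), 1 fell and 8 did not pass, with a median of 0.08. CCND1, the cyclin of the G1 phase, had 10.16, 10.15 and 10.15 in exposed cells, against 10.41, 10.50 and 10.45 in unexposed cells, a change of -0.30 (SE 0.05, limma adjusted p = 0.0312, and 0.0471 over all probe sets). NOCT, a cycling phosphatase gene of NADPH metabolism, had 0.33 (limma adjusted p = 0.0539), and WEE1, an inhibitor of mitotic entry under E-box control, had -0.11 (limma adjusted p = 0.447), both of them named once their values were known. With single arrays left out, between 0 and 3 of the 52 genes passed: 3 without exposed replicate 3 and 0 without any of the other 5 arrays.

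**Figure D5:**
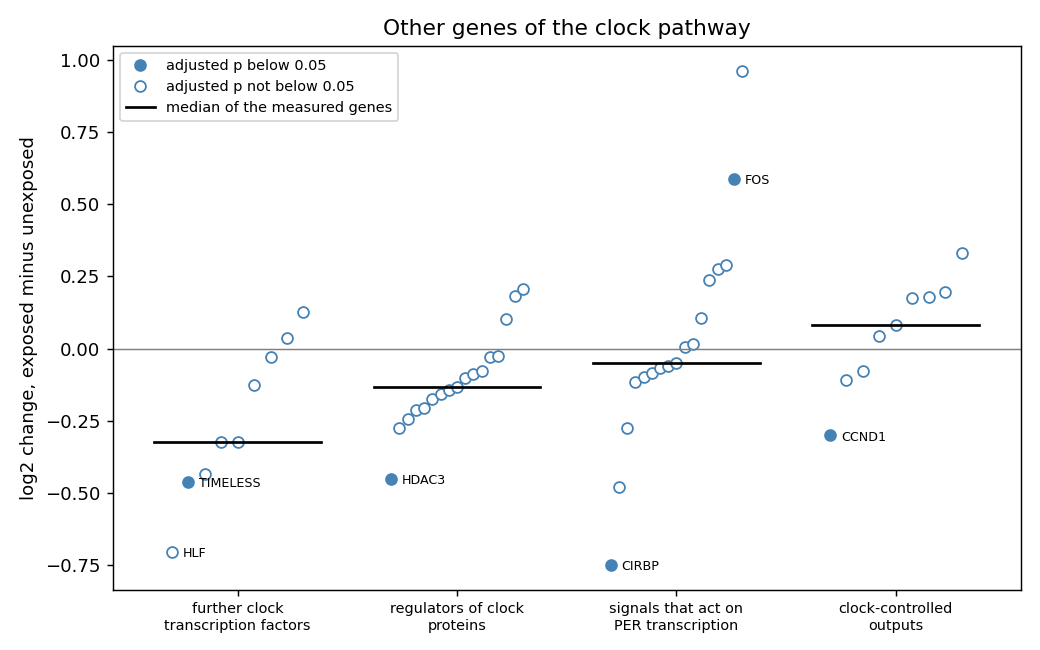
Log2 change, exposed minus unexposed (vertical axis), of the measured genes in 4 lists of further clock genes, with lines for the list medians and filled points for genes with an adjusted p below 0.05. TIMELESS, HDAC3, CIRBP (by the brighter of its 2 probe sets) and CCND1 are filled below 0 and FOS above it, and HLF is labelled at -0.70.

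The cell line label was set against markers. VIM, CD44, SOX9 and CHI3L1 had values of 8.67 or more on every array, and NES lay at 6.57 to 7.03. By contrast, S100B (3.07 to 3.87) and SOX2 (3.41 to 3.73) lay below the array medians of 3.96 to 3.99, and GFAP lay at 4.79 to 5.31. GFAP had 5.05, 5.31 and 5.28 in exposed cells, against 4.93, 4.86 and 4.79 in unexposed cells, a change of 0.35 (limma adjusted p = 0.143). S100B had 3.07, 3.33 and 3.37 in exposed cells, against 3.87, 3.78 and 3.38 in unexposed cells, a change of -0.42 (limma adjusted p = 0.251). Neither of these astrocyte markers overlapped between groups, and their changes had opposite signs. The S100B groups were separated by 0.01 only. CD44 also had exposed values wholly below the unexposed ones, by 0.02. Of all genes, 13.8% were wholly below and 13.2% wholly above. In all, 0 of the 8 glioma or astrocyte markers and 0 of 10 measured markers of neurons, oligodendrocytes, microglia and endothelium passed the threshold. The 2 measured microglia or macrophage markers, CD68 and CSF1R, summed to 18.0 to 18.1 in exposed and 17.6 to 17.9 in unexposed cells, while PTPRC, AIF1 and ITGAM were not analysed here. CD68 stood at 12.22 to 12.31, above every glioma or astrocyte marker (at most 10.58), and CSF1R at 5.41 to 5.80. Levels of different probe sets also depend on their probes, so this order does not rank amounts of transcript. Whether cells of this type were present was not tested. CD68 and CSF1R both had exposed values wholly above the unexposed ones, beside 13.2% of all genes. The sums were 9.46 to 9.60 in exposed and 9.09 to 9.53 in unexposed cells for the 2 neuron markers, 13.5 to 14.0 in exposed and 13.8 to 14.1 in unexposed cells for the 3 oligodendrocyte markers, and 12.3 to 12.7 in exposed and 11.4 to 12.5 in unexposed cells for the 3 endothelial markers. The part of such differences in the results above was not tested. These are arrays of whole dishes, so fewer cells with a transcript and less of it per cell cannot be told apart.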

How the data were processed

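Total RNA from 3 exposed and 3 unexposed dishes was measured on 6 Affymetrix arrays, grouped by sample title, which the source names match; a further label, the description, adds the word control to the exposed samples too. The deposited table holds log2 expression values, 1 per probe set and array. Per the submitters' processing notes, the authors made them with RMA, Affymetrix Expression Console 3.0 and Transcriptome Analysis Console 3.0; further settings and the genome build were not given in the sources used here. RMA gives all arrays like distributions, so a change in total RNA would not show. The table has no detection calls, and precision is limited by the number of arrays. P-values set each difference against the spread between these dishes, with the variance of each probe set drawn towards a trend over all probe sets.

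Of 53617 probe sets, 16098 carried 1 gene symbol, 0 several, and 37519 were unnamed here. All 16098 matched RefSeq (GRCh38.p14) by gene ID. A gene was represented by its probe set with the highest mean, which gave 14884 genes. Differences were fitted with limma 3.58.1 in R 4.3.3 (lmFit, eBayes with trend, two-sided, no covariates, no filter). Benjamini-Hochberg adjustment ran over genes, with a threshold of 0.05. Errors are SE or SD. Sequences came from RefSeq tables and were searched in Python 3.11.15.

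Members, lists and arms were chosen with earlier results of these data known. All 10 members are named, and from each further list the genes past the threshold plus HLF; others are marked where named. On simulated arrays with the real means and SDs, run on 14884 genes for this comparison, the procedure found 33% of the genes given a change of 0.5 log2 and 79% of those given 1 log2. Each size of change was given to 100 genes, and noise was drawn independently for each probe set. Variation shared between genes was left out, so the rates on the real arrays may differ. Replicate numbers were not used to pair the arrays in the main fit. The alternatives tried were adjustment over all probe sets, averaging the probe sets of a gene, a fit on representative probe sets, a replicate block, no trend, quantile normalization, median centring, a filter on dim probe sets and leaving out each array.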

Additional observations from a re-analysis of the deposited data

How the results depend on the processing

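The members' changes were computed under 14 alternatives, 140 values in all. Of these, 123 kept their sign and their side of the threshold and 7 changed sign. The sign changes were those of CRY2 without exposed replicate 1 (0.00244) and exposed replicate 3 (0.0185), with a lowest value of -0.142 without exposed replicate 2, and of BMAL1 with arrays centred on their medians (-0.00971), without exposed replicate 1 (-0.0345), exposed replicate 3 (-0.0561), unexposed replicate 1 (-0.0281) and unexposed replicate 2 (-0.0440), with a highest value of 0.0976 without exposed replicate 2. PER2 kept its sign in all 14 and did not pass in 6, in each of which 0 of all 14884 genes passed. A member's sign could change only with quantile normalization, median centring or an array left out. Under the other alternatives its log2 change was the same as in the main fit by construction, and only its p could differ. The number of members past the threshold was 3 (PER1, PER2 and CLOCK) when the probe sets of a gene were averaged, and likewise when only representative probe sets were fitted. Each member has 1 probe set, so the variance model and the genes in the fit differ there, not the values. It was 0 with eBayes run without a trend (limma, 3 at an unadjusted p below 0.05) and 0 to 1 with an array left out. With the replicate number as a block it was 0 (4 at an unadjusted p below 0.05 in limma) and, over all 14884 genes, 0 passed (2286 at an unadjusted p below 0.05). Same-numbered arrays had correlations of -0.0253 to 0.00964 between their deviations from the group means, so the numbers gave no sign of pairing.

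In the 4 further lists, 5 genes passed, against 2 when adjusted over all probe sets, 12 with averaged probe sets, 14 when only representative probe sets were fitted, 9 with the filter on dim probe sets, 0 with the replicate block, 0 without a trend and 0 to 3 with an array left out. The shift of the repressor against the activator mean was -0.18 to -0.10 with an array left out. There and with quantile normalization it moved by less than the spread between replicates. With averaged probe sets, the replicate block, median centring or the filter on dim probe sets this shift could not move. Over all genes 456 passed, with 162 when adjusted over all probe sets, 0 to 325 when an array was left out (2065 to 2776 at an unadjusted p below 0.05), 0 without a trend (2220 unadjusted), 1173 with the mean of probe sets, 1209 when only representative probe sets were fitted and 753 with the filter on dim probe sets; the causes were not tested. Signal over background limits the dim genes, for which the table gives no detection call.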
